A study of Mus musculus with 13 samples.

Results

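Cytosolic ribosomal protein genes encode the protein part of the ribosomes that translate nuclear messages. Members were taken by name from the deposited count table: gene identifiers were matched to mouse symbols, and symbols made of Rpl or Rps and a number were kept together with Rpsa, Rplp0, Rplp1 and Rplp2, while pseudogenes named -ps and the Rps6k kinases were left out. This gave 92 of the 43430 genes in the table. They comprised 31 genes of the small (40S) subunit, 43 of the large (60S) subunit, 3 of the P stalk, 14 paralogues or variants, and Rps19bp1, which meets the naming rule but encodes a protein that binds RPS19 and is not part of the ribosome. The rule used no measured value. It leaves out ribosomal protein genes with names of another kind.

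Most ribosomal proteins are present in a single copy in each ribosome, the acidic stalk proteins in several, and the genes of the family are among the most strongly transcribed in most cells. Many of their messages begin with a C followed by a run of pyrimidines, the 5′ terminal oligopyrimidine (TOP) motif, through which the kinase mTOR and the RNA-binding protein LARP1 control their translation and stability. Alveolar macrophages are the long-lived phagocytes of the airspaces, and metformin, a biguanide used in type 2 diabetes, is known to lower mTOR activity in many cell types.

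The cells came from male C57Bl/6 mice, aged 10 weeks, and were sorted from lung. Metformin was offered in the water at 100 mg/kg/day, starting 24 h ahead of the instillation, and the remaining animals drank vehicle. Each mouse then received into the trachea either phosphate-buffered saline (PBS) or 10 µg of NIST reference particulate matter (PM), and its cells were taken after 24 h. Of the PBS mice 4 had drunk vehicle and 3 metformin, and of the PM mice 3 had drunk vehicle and 3 metformin. Libraries of polyadenylated RNA held 5567481 to 8100538 gene counts, of which 109594 to 175868 fell in the 92 members. The design text calls the libraries biological replicates, and p-values measure the spread between them. Libraries carry the number of their titles, and levels are given as CPM, counts relative to the library total, scaled with edgeR's trimmed mean of M values.

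All 14 alveolar macrophage markers were detected in the sorted cells, with a summed level of 23900 to 30300 CPM. The T and NK cell list summed to 0.357 to 1.24 CPM, and the neutrophil list, of which Camp, Ly6g and Retnlg had no count, to 26.3 to 46 CPM. Other markers moved with the groups and are given beside the results. For the members themselves 2 libraries stood apart: vehicle PM replicate 2 was the highest of all 13 for 58 of the 85 tested members and metformin PBS replicate 3 the lowest for 38, and the count of each PM comparison is also given without its own such library. In bulk libraries a change in the share of cells of a type and a change of RNA per cell cannot be told apart.

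Because the TOP motif lies at the very start of the message, the sequence around the annotated start was read from the RefSeq promoter table (GRCm38.p6) for the 67 members it holds. The windows below run from 20 bases before the start to 10 bases from it, 5′ to 3′ on the strand of the gene, and show all 11 of these members that were called in a PM comparison, with each annotated start, followed by Rps6, Rplp2 and Rps19bp1, which were not called. Capitals mark a C that lies within 5 bases of the annotated start together with the C and T run of at least 4 bases that follows it. Windows without capitals hold no such run.
Rpl12 (chr2:32961692-32961721, plus strand): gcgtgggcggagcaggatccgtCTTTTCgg
Rpl19 (chr11:98026690-98026719, plus strand): ccacgtgaccaaacgCCCTCactgcgcatg
Rpl19, another start (chr11:98026904-98026933, plus strand): gggcttgggctctccCCTTCgcagataatg
Rpl27a (chr7:109519175-109519204, plus strand): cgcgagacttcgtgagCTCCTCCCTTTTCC
Rpl31 (chr1:39367831-39367860, plus strand): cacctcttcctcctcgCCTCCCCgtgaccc
Rps2 (chr17:24720043-24720072, plus strand): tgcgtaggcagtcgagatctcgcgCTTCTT
Rps18 (chr17:33955656-33955685, minus strand): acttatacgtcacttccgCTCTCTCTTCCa
Rps24 (chr14:24490658-24490687, plus strand): acgcccccgcgctggggtCCTTCCTTgcgc
Rps24, another start (chr14:24490733-24490762, plus strand): ccagctccggcgccgtagccatcatggtga
Rpl4 (chr9:64173367-64173396, plus strand): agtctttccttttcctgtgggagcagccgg
Rps12 (chr10:23787200-23787229, minus strand): ttaaataccgtcatgcggccaccgccggcc
Rps25 (chr9:44407694-44407723, plus strand): tcctttttttccgacatcttagcgaggctg
Rpsa (chr9:120127746-120127775, plus strand): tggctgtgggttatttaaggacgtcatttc
Rps6 (chr4:86857358-86857387, minus strand): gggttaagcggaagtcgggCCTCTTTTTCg
Rplp2 (chr7:141447631-141447660, plus strand): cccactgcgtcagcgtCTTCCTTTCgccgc
Rps19bp1 (chr15:80264297-80264326, minus strand): accgccagggcggaagtagctcgccgcgtg
The motif was found in 30 of the 67 matched members, 44.8% (exact binomial interval 32.6 to 57.4%), and in 21.2% of the 27025 genes of the table searched in the same way on the strand of the gene. The rule looks only near the annotated start: Rpl4 and Rps25 have a pyrimidine run in the window upstream of the annotated start that does not meet the rule. With the C required within 2 bases of the start the shares were 32.8% and 10.6%, and with at least 6 pyrimidines after the C they were 34.3% and 7.64%. The motif was present in 7 of the 11 matched members that were called in a PM comparison and in 23 of the 53 matched and tested members that were not.

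In mice on vehicle water and PBS, the level per kilobase of principal transcript (GENCODE M21) had a median of 306 CPM per kb over the 77 subunit and stalk genes, against 11 CPM per kb over all genes tested. The highest was Rplp1, an acidic stalk protein, at 1220 ± 31.1 CPM per kb (SD, n = 4). Rps9, which lies near the mRNA entry side of the small subunit, followed at 874 ± 16.8, and these neighbours differed by more than their spread. Rpl32 (673 ± 35.9 CPM per kb) was also among the highest, as was Rpl41 (587 ± 54.5 CPM per kb). The lowest of the subunit genes was Rpl24, at 72.6 ± 3.3 CPM per kb, 16.8-fold under Rplp1.

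Those levels depend on how reads were assigned. Many members have processed pseudogenes and near-identical copies, and over the 77 core genes a median of 51.3% of the 75-base windows of the transcript were unique in the reference, with a range from 1.5% in Rps27 to 100%. How reads with several matches were counted is not given in the sources used here, so levels of members with few unique windows are uncertain. Rpl24, the low end of the 16.8-fold range, has 23.2% unique windows and is overlapped by another counted gene on its strand. Across the 77 genes the level per kb had a Spearman correlation of 0.163 with the unique share, a description over genes that share libraries and counting. The named pseudogenes took 2886 counts in all, against 1825173 for the members. Lengths also matter: the principal transcripts of Rps20 (3706 bases) and Rps24 (1613 bases) are long for the family, and the level per kb falls in proportion to the length used. Another counted gene overlaps 49 of the members, including 14 of the 15 called below (all but Rps24), and 24 hold a named small nucleolar RNA gene in the same orientation. The 33 such RNA genes had 384 counts in all.

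**Figure D1:**
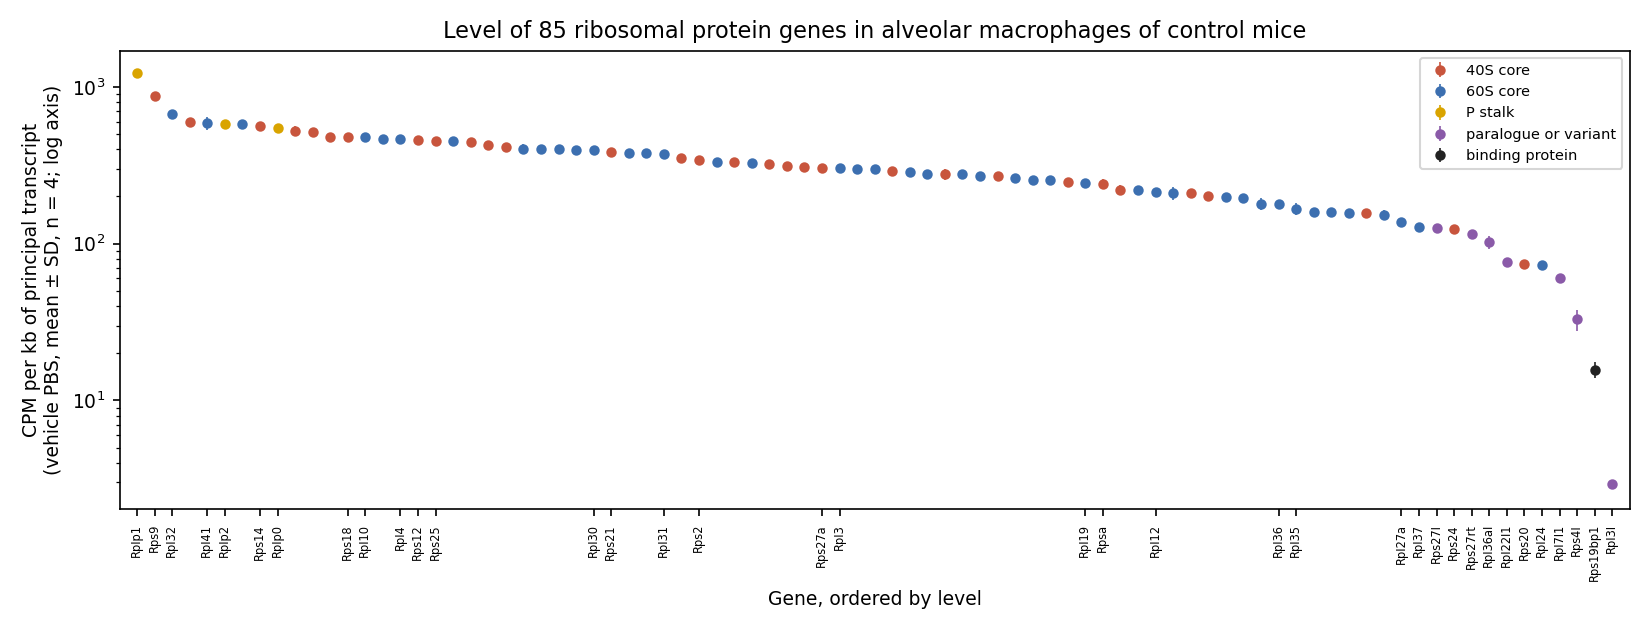
Level of each tested ribosomal protein gene in mice on vehicle water and PBS, as CPM per kb of principal transcript on a log axis (mean ± SD over 4 libraries), ordered by level and coloured by subunit. Rplp1 stands highest at 1220 CPM per kb, the subunit and stalk genes span 16.8-fold, and Rpl3l, Rps19bp1 and Rps4l form the low end.

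The paralogues were mostly low. Rpl3l, the muscle form of RPL3, was at 2.93 ± 0.193 CPM per kb, and Rps4l, a copy of Rps4x, at 32.9 ± 5.07 CPM per kb. Rpl7l1, which works in the assembly of the large subunit, was at 60.2 ± 2.62, Rpl22l1, the partner of Rpl22, at 76.7 ± 4.55, and Rpl36al, Rps27rt and Rps27l lay between 102 and 126 CPM per kb. The other 7 paralogues or variants did not pass the low-count filter. Rpl10l had no count in any library, which allows at most 3 counts per library. Rps12l1 also had none, but 0.0% of its windows are unique and 23 other genes share its sequence, so its 0 sets no limit on its messages. Rps3a2 (3 counts in all), Rpl6l (6), Rps3a3 (26), Rpl37rt (44) and Rpl39l (90) had few. Of the 14, 6 are typed as pseudogenes in GENCODE M21 despite their names. As a share of the counts of both partners, Rpl22l1 took 17.2 to 20.7% against Rpl22 in the 13 libraries and Rpl7l1 16.2 to 19.2% against Rpl7. The Rpl22l1 share was 17.8 to 18.6% in metformin PBS and 19 to 20.7% in metformin PM libraries, without overlap. The Rpl7l1 share was 18 to 19.2% in vehicle PBS and 16.2 to 17.7% in metformin PBS libraries, also without overlap. So were the shares of Rpl39l against Rpl39, from few counts, in that comparison (0.118 to 0.772% and 0.868 to 1.18%). Rps27l against Rps27 took 44 to 45% in metformin PBS and 45.4 to 46.6% in metformin PM libraries. These ranges were picked after the values were seen, and most other pairs and group comparisons overlapped. With 3 or 4 libraries per group some ranges can separate by chance. These shares were not tested. Rps27l took 42.9 to 51.7% of its pair with Rps27, but Rps27 has 1.5% unique windows and its count may be understated.

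The first comparison asks what followed the particles in mice on vehicle water. Ribosomal protein messages were slightly higher with PM: 10 of the 85 tested members (11.8%) rose and none fell at a Benjamini-Hochberg adjusted p under 0.05 in edgeR's quasi-likelihood test, while over all 11906 genes tested 2.6% rose and 2.26% fell. DESeq2 called 13 higher and limma-voom 11, both none lower, and at an unadjusted p under 0.05 in edgeR 46 were higher and none lower, against 8.11% and 8.54% of all genes. The difference was small and broad. The members' median log2 fold change was 0.13, or 9.71%, and 82 of 85 were positive, against a median of 0.00 and 49.6% positive over all genes. The members are abundant and so measured with less error than most genes, with a median standard error of 0.06 against 0.104.

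Among the small-subunit genes 7 of 31 rose, all 31 fold changes were positive, and the median was 0.15. Rps27a, which encodes ubiquitin joined to RPS27A (ENSMUSG00000020460; mm10 chr11:29545846-29548109, minus strand), was at 193, 197, 192 and 197 CPM with PBS and at 217, 244 and 222 CPM with PM. All 3 PM libraries lay above all 4 PBS libraries, and the rise was 17.1% (log2 fold change 0.23 ± 0.06 SE; edgeR adjusted p = 0.0169). Rps25, a protein of the subunit head used by some internal ribosome entry sites (ENSMUSG00000009927; chr9:44407714-44410405, plus strand), was at 265, 265, 258 and 253 CPM with PBS and at 293, 322 and 294 with PM, again without overlap (0.22 ± 0.05; edgeR adjusted p = 0.0185). Rps2, at the mRNA entry channel (ENSMUSG00000044533; chr17:24718116-24721929, plus strand), read 361, 344, 338 and 325 CPM with PBS and 377, 420 and 392 with PM (0.21 ± 0.05; edgeR adjusted p = 0.0226). The ranges did not overlap, although the lowest PM library was only 16.4 CPM above the highest PBS library. Rps24, which is mutated in some families with Diamond-Blackfan anaemia (ENSMUSG00000025290; chr14:24490681-24496146, plus strand), had the largest fold change of the family. It was at 201, 200, 211 and 189 CPM with PBS and 218, 259 and 238 with PM, a rise of 19.1% (0.25 ± 0.07; edgeR adjusted p = 0.0325). Among the others that rose were Rpsa, also described as a laminin receptor, with 0.24, and Rps12 with 0.22, named after their values were seen.

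Of the large-subunit genes 3 of 43 rose, 42 fold changes were positive and the median was 0.13. Rpl19, which forms a bridge between the subunits (ENSMUSG00000017404; chr11:98026710-98030492, plus strand), was at 186, 186, 186 and 174 CPM with PBS and at 215, 227 and 208 CPM with PM. The groups did not overlap, and the rise was 18.2% (0.24 ± 0.05; edgeR adjusted p = 0.00753), the lowest adjusted p of the family. Rpl31, near the peptide exit tunnel (ENSMUSG00000073702; chr1:39367842-39371911, plus strand), read 194, 174, 179 and 175 CPM with PBS and 211, 219 and 197 with PM (0.21 ± 0.05; edgeR adjusted p = 0.0252). Its lowest PM library was within 3.49 CPM of the highest PBS library. Rpl27a, named after its value was seen, rose by 0.22 (edgeR adjusted p = 0.0382). Rpl38, a protein linked to translation of Hox messages, had a fold change as large (0.24 ± 0.07) but did not pass (edgeR adjusted p = 0.0615).

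No P stalk gene passed in edgeR or DESeq2, and 1 of 3 was higher at an unadjusted p under 0.05. Rplp1 had a log2 fold change of 0.17 ± 0.06 (edgeR adjusted p = 0.118), with 624, 606, 609 and 587 CPM with PBS and 672, 731 and 643 with PM, which do not overlap. Rplp2 gave 0.12 ± 0.07 and Rplp0, the stalk base, 0.11 ± 0.06. Of the 7 tested paralogues none passed in edgeR or DESeq2, with 1 higher at an unadjusted p under 0.05. Rpl36al gave 0.21 ± 0.10, Rps4l 0.19 ± 0.15, Rps27l 0.16 ± 0.07, Rps27rt 0.13 ± 0.08, Rpl22l1 0.05 ± 0.07, Rpl3l 0.00 ± 0.24 and Rpl7l1 -0.05 ± 0.06. The 3 members with a fold change at or below 0 were Rps19bp1 (-0.08 ± 0.14), Rpl7l1 and Rpl10 (-0.01 ± 0.06). Of these, Rpl10 alone is a subunit gene, and it has 8.1% unique windows and 11 other genes sharing sequence.

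The calls in this comparison rested on few libraries. Without vehicle PM replicate 2, the library highest for most members, no member passed and the median was 0.09. The count was 2 without vehicle PBS replicate 4, 3 without vehicle PBS replicate 2 and 5 without vehicle PM replicate 3. Rpl19 and Rps27a passed in each of the other 6 fits that left out 1 library, Rps25 in 5 of 7, and the other 7 called members in 1 to 3 of 7. The fold changes stayed positive for all 10 in every such fit. In 40 of 85 members (47.1%) all PM libraries lay above all PBS libraries, against 7.33% of all genes tested.

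**Figure D2:**
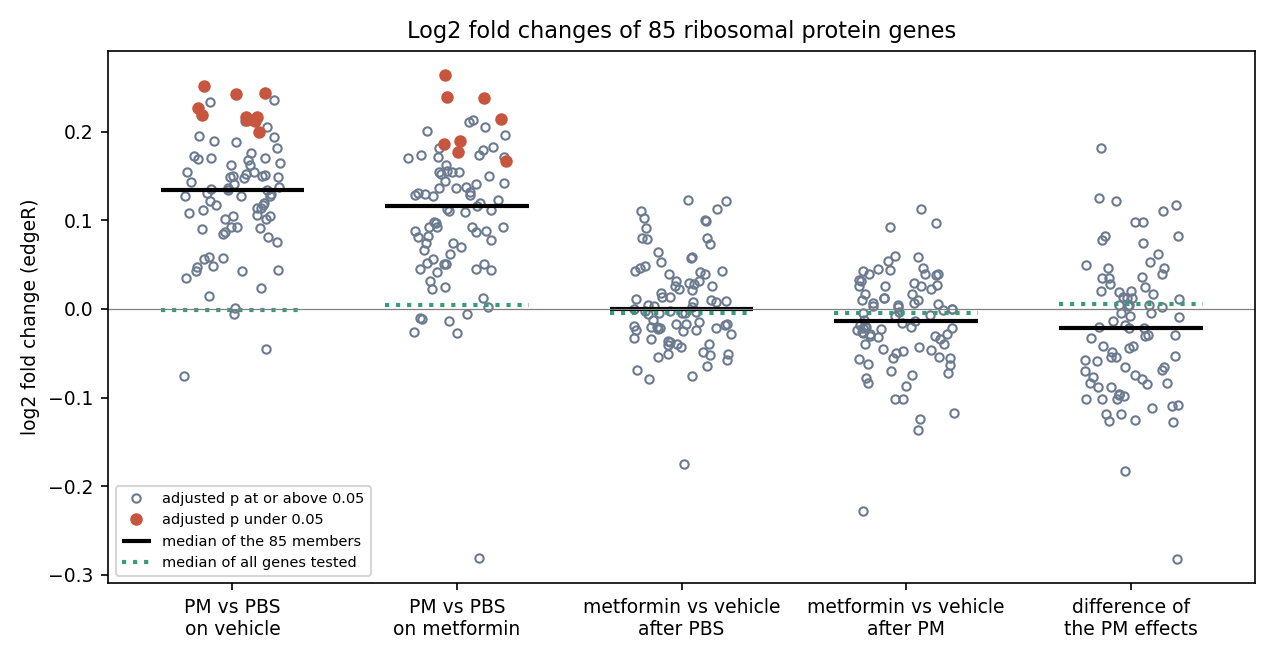
Log2 fold changes of the 85 tested members in each of the 5 comparisons (circles; filled where the edgeR adjusted p was under 0.05), with the members' median (black) and the median of all genes tested (dotted). Both PM comparisons lie above 0 with medians of 0.13 and 0.12 and with 10 and 8 filled points, and the other 3 comparisons centre near 0 with none.

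The same question in mice on metformin gave a similar count. With PM 8 of 85 members (9.41%) rose and none fell in edgeR, while 7.18% of all genes rose and 5.6% fell, so the share of members called was close to that of genes at large. The median was 0.12, or 8.4%, and 78 of 85 were positive, against 0.005 and 50.9% over all genes. DESeq2 called 6 higher and limma-voom 10, both none lower, and at an unadjusted p under 0.05 in edgeR 32 were higher and none lower, against 14.3% and 11.8% of all genes.

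In the small subunit 5 of 31 rose, with a median of 0.12 and 27 positive. Rps2 was at 351, 316 and 331 CPM with PBS and at 378, 398 and 401 CPM with PM, with no overlap and a rise of 18.0% (0.24 ± 0.06; edgeR adjusted p = 0.00913). Rps24 was at 220, 180 and 195 CPM with PBS and 240, 229 and 232 with PM (0.24 ± 0.07; edgeR adjusted p = 0.0338), and its groups lay 9.36 CPM apart. Rps20 (0.19) and Rps18 (0.18) also rose, named after their values were seen, and both missed the threshold in DESeq2 (adjusted p = 0.0567 and 0.0625). The lowest subunit gene was Rps14, a protein of the platform of the subunit, with -0.03 ± 0.08.

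In the large subunit 3 of 43 rose, with a median of 0.12 and 41 positive. Rpl12, at the base of the stalk where translation factors bind (ENSMUSG00000038900; chr2:32961559-32965345, plus strand), had the largest change, from 285, 233 and 254 CPM with PBS to 295, 318 and 314 with PM (0.26 ± 0.07, or 20.1%; edgeR adjusted p = 0.0163). The ranges did not overlap, though metformin PBS replicate 1 came within 9.96 CPM of the lowest PM library. Rpl4, which lines the exit tunnel (ENSMUSG00000032399; chr9:64173387-64178562, plus strand), read 711, 654 and 693 CPM with PBS and 747, 784 and 811 with PM (0.19 ± 0.05; edgeR adjusted p = 0.0213). Rpl3, at the peptidyl transferase centre (ENSMUSG00000060036; chr15:80077794-80091868, minus strand), read 403, 375 and 396 CPM with PBS and 433, 442 and 443 with PM (0.17 ± 0.05; edgeR adjusted p = 0.0412). Neither gene's groups overlapped. Rpl4 has 91.5% unique windows, and Rpl3 16.8%.

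None of the stalk genes passed in edgeR or DESeq2, and 1 of 3 was higher at an unadjusted p under 0.05. Rplp0 gave 0.14 ± 0.06, Rplp2 0.09 ± 0.07 and Rplp1 0.05 ± 0.06. Nor did a paralogue, with 1 of 7 higher at an unadjusted p under 0.05. Rps4l gave 0.21 ± 0.15, Rpl22l1 0.17 ± 0.08, Rpl7l1 0.14 ± 0.07, Rpl36al 0.11 ± 0.11, Rps27l 0.07 ± 0.07, Rps27rt 0.05 ± 0.08 and Rpl3l -0.28 ± 0.25. Rps19bp1 gave 0.04 ± 0.14. Rpl3l had under 5 CPM in every library but vehicle PM replicate 2, so its fold change has a wide error.

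Here too single libraries set the count. Without metformin PBS replicate 1 it was 23 and the median 0.16. Without metformin PBS replicate 3 no member passed and the median was 0.07. The count was also 0 without metformin PM replicate 3, 1 without metformin PM replicate 4 or metformin PBS replicate 4, and 3 without metformin PM replicate 1. Rps2 passed in 4 of the 6 fits that left out 1 library, Rpl12 and Rpl4 in 2, and the other 5 in 1, and the fold changes stayed positive for all 8. PM libraries lay wholly above PBS libraries in 32 members (37.6%), against 16.1% of all genes.

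Markers of the sorted cells and of others moved in the same comparisons. Over all genes tested 2.6% rose and 2.26% fell with PM on vehicle, and 7.18% rose and 5.6% fell on metformin. Of the 14 alveolar macrophage markers 5 rose and 3 fell with PM on vehicle, and 8 rose and 3 fell on metformin. Siglecf, Ear1 and Ear2 were lower and Car4, Marco and Fabp4 higher in both. The summed level of the 12 monocyte and monocyte-derived macrophage genes, each counted in at least 1 library (Ly6c2 with only 5 reads in all), was 362 to 408 CPM with vehicle and PBS, 453 to 517 with metformin and PBS, 481 to 560 with vehicle and PM and 499 to 512 with metformin and PM. Of its 7 tested genes 4 rose with PM on vehicle, and on metformin 3 rose and Apoe fell. Fold changes were negative for 3 of the 7 on vehicle and for 2 on metformin. Csf1r made up most of the sum, with means of 309, 358, 408 and 397 CPM in the order of groups above. Apoe was at 50.7, 107, 49.2 and 49.8 CPM in that order. Ccr2 was lower with PM (8.26, 7.36, 7.22 and 4.39 CPM), and Cx3cr1 and Ly6c2 had at most 0.893 and 0.255 CPM in any library. The 9 cycling-cell genes summed to 575 to 983, 487 to 516, 854 to 887 and 721 to 834 CPM in the same order of groups, and all 9 rose with PM on metformin while none passed on vehicle. With metformin in PBS mice 6 of the 9 fell and all 9 fold changes were negative, with a median of -0.75. In that comparison 1.13% of all genes rose and 1.93% fell. Igkc and Jchain, antibody chains of plasma cells, rose with PM in both, and the list of 7 B and plasma cell genes summed to 1.27 to 3.6, 1.69 to 3.5, 3.09 to 8.71 and 2.96 to 8.56 CPM. Of 6 tested endothelial and stromal genes 4 rose with PM on metformin, where the list of 7 summed to 25.4 to 44 CPM against 8.62 to 24.7 CPM in the other groups, and of 7 tested epithelial genes 3 rose and 1 fell. The part of these markers in the ribosomal protein result was not tested.

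**Figure D3:**
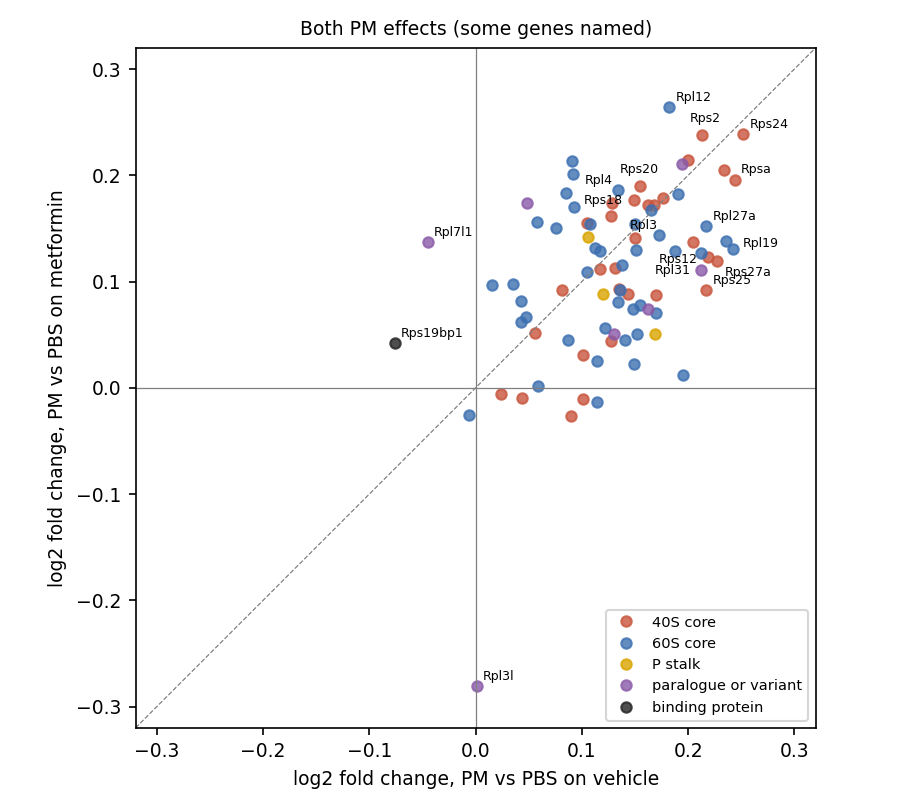
Log2 fold change of each tested member with PM on vehicle (horizontal axis) against that on metformin (vertical axis), coloured by subunit, with the line of equal change dashed. Of the 85 members 76 are positive on both axes, and the called genes reach 0.25 on vehicle and 0.26 on metformin.

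The comparisons on vehicle and on metformin share no library. Rps2 and Rps24 were among the 3 members called in both, which is 30.0% of the 10 called on vehicle and 37.5% of the 8 called on metformin, and 15 members were called in either. No matching value over all genes is given here for calls in both or for fold changes positive in both. Across the 85 members the fold changes had a Pearson correlation of 0.453 and a Spearman correlation of 0.396, given as a description because genes of a library share its depth and scaling. Rpl19 (0.24 and 0.13), Rps25 (0.22 and 0.09) and Rps27a (0.23 and 0.12) were larger on vehicle, and Rpl12 (0.18 and 0.26) and Rpl4 (0.13 and 0.19) larger on metformin. No such difference passed the test of the difference itself. For that difference edgeR called 0 of 85 members in either direction, at an unadjusted p under 0.05 also 0, and DESeq2 and limma-voom called 0, while 0.89% and 0.546% of all genes had a more positive and a more negative PM effect under metformin. The most different members were Rpl7l1 (0.18 ± 0.09; edgeR adjusted p = 0.471), Rpl22l1 (0.13 ± 0.11) and Rpl37 (0.12 ± 0.10) on one side, and Rpl3l (-0.28 ± 0.34), Rpl35 (-0.18 ± 0.10) and Rpl30 (-0.13 ± 0.08) on the other. The 95% intervals had a median half-width of 0.18 on the log2 scale, so a difference of the size of the PM effects themselves was not detectable for a typical member.

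Metformin was followed by no detected change of the family. In PBS mice edgeR called 0 of 85 members, against 1.13% of all genes called higher and 1.93% called lower, and DESeq2 and limma-voom also called 0. At an unadjusted p under 0.05 in edgeR none was higher and 1 was lower, against 8.34% and 9.51% of all genes. The median was 0.00, with 42 fold changes positive and 43 negative. The 1 member was Rpl7l1, with 82.9, 74.6, 78.6 and 79.5 CPM on vehicle and 70.2, 66.4 and 73.0 on metformin (-0.18 ± 0.07; edgeR adjusted p = 0.156), without overlap. At the other end lay Rpl36 (0.12 ± 0.08), Rps21 (0.12 ± 0.06) and Rpl37a (0.11 ± 0.08), and metformin PBS replicate 1 was the highest of the 13 libraries for Rpl36 (88.6 CPM) and Rps21 (181 CPM). Rps18 (-0.08 ± 0.05) and Rpl37 (-0.08 ± 0.07) were the next lowest. Over the 77 subunit and stalk genes the 95% intervals of the log2 fold change reached from -0.23 at the lowest to 0.30 at the highest.

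In PM mice edgeR again called 0 of 85, against 4.08% of all genes called higher and 2.81% lower, and DESeq2 and limma-voom called 0. At an unadjusted p under 0.05 in edgeR none was higher or lower, against 10.8% and 9.54% of all genes. The median was -0.01, with 36 positive. Rpl35, at the tunnel exit, had the lowest fold change of the subunit genes (-0.14 ± 0.07; edgeR adjusted p = 0.306), with 179, 190 and 172 CPM on vehicle and 171, 163 and 159 on metformin. Its groups did not overlap, but they were 1.17 CPM apart. Rpl3l (-0.23 ± 0.25) and Rps27l (-0.12 ± 0.07) were also low, and Rps19bp1 (0.11 ± 0.14), Rps4l (0.10 ± 0.15) and Rpl22l1 (0.09 ± 0.08) were the highest. Over the 77 subunit and stalk genes the 95% intervals reached from -0.29 to 0.24.

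Summed over the 92 members, the share of all counts was 2.113, 2.058, 2.065 and 1.968% in vehicle PBS replicates 1 to 4 and 2.174, 1.959 and 2.046% in metformin PBS replicates 1, 3 and 4. It was 2.162, 2.349 and 2.161% in vehicle PM replicates 1 to 3 and 2.171, 2.181 and 2.247% in metformin PM replicates 1, 3 and 4. On vehicle the PM libraries all lay above the PBS libraries, with a ratio of means of 1.084. On metformin the ratio was 1.068, and metformin PBS replicate 1 lay above metformin PM replicate 1, so the groups overlapped. The ratios were 1.087 and 1.067 without the 5 most abundant members, and 1.079 and 1.075 over the 20 members with at least 80% unique windows. The 40S genes had ratios of 1.095 and 1.075 and the 60S genes with the stalk 1.078 and 1.063. The count of 40S over 60S genes was 0.69 ± 0.00213 with vehicle and PBS (SD, n = 4), 0.693 ± 0.00687 with metformin and PBS, 0.701 ± 0.00561 with vehicle and PM and 0.701 ± 0.00813 with metformin and PM, and it was not tested. The share of the mitochondrially encoded messages had PM over PBS ratios of 1.045 on vehicle, where the groups overlapped, and 1.12 on metformin, where they did not. This share was 0.8926 to 0.9427% in the metformin PBS libraries and 0.9485 to 1.071% in the other 10. The lowest of those 10 was vehicle PBS replicate 4, close to the highest metformin PBS library, and these shares were not tested.

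**Figure D4:**
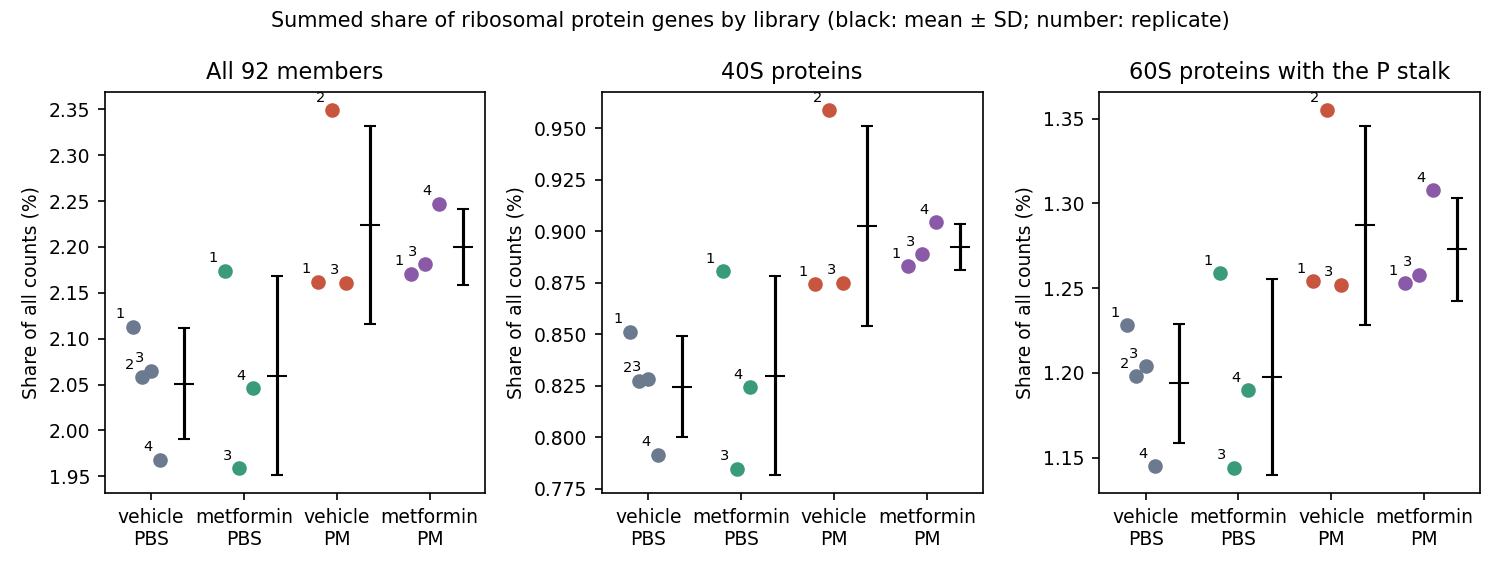
Share of all gene counts taken by the 92 members, by the 40S genes and by the 60S genes with the stalk, for each of the 13 libraries (points, with replicate number; black, mean ± SD; the axis does not start at 0). Vehicle PM replicate 2 is highest at 2.349% and metformin PBS replicate 3 lowest at 1.959%, and metformin PBS replicate 1 lies among the PM libraries.

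The members moved together from library to library, also within groups. After removal of the group means, the correlation of a member with the median of the other members over the 13 libraries had a median of 0.823, and 84 of 85 were positive, which describes a shared position of whole libraries. A library's median deviation from the members' means was -0.11 to -0.02 with vehicle and PBS, -0.14 to 0.05 with metformin and PBS, 0.03 to 0.16 with vehicle and PM and 0.04 to 0.09 with metformin and PM (log2). The same median over all genes stayed within 0.00 to 0.01. The scaling between libraries holds this median, and the median fold change over all genes, near 0, so neither is a separate observation. The highest library of a member was a PM library for 71 of 85 members and the lowest a PBS library for 81, where 6 of 13 libraries are PM and 7 are PBS. Few libraries made up these counts: vehicle PM replicate 2 was the highest for 58, and metformin PBS replicate 3 and vehicle PBS replicate 4 the lowest for 38 and 26. Because the members move together, they are not independent, and the counts were not tested. The total counts of vehicle PM replicate 2 (6529281) and metformin PBS replicate 3 (6186896) lay inside the range of the other libraries.

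**Figure D5:**
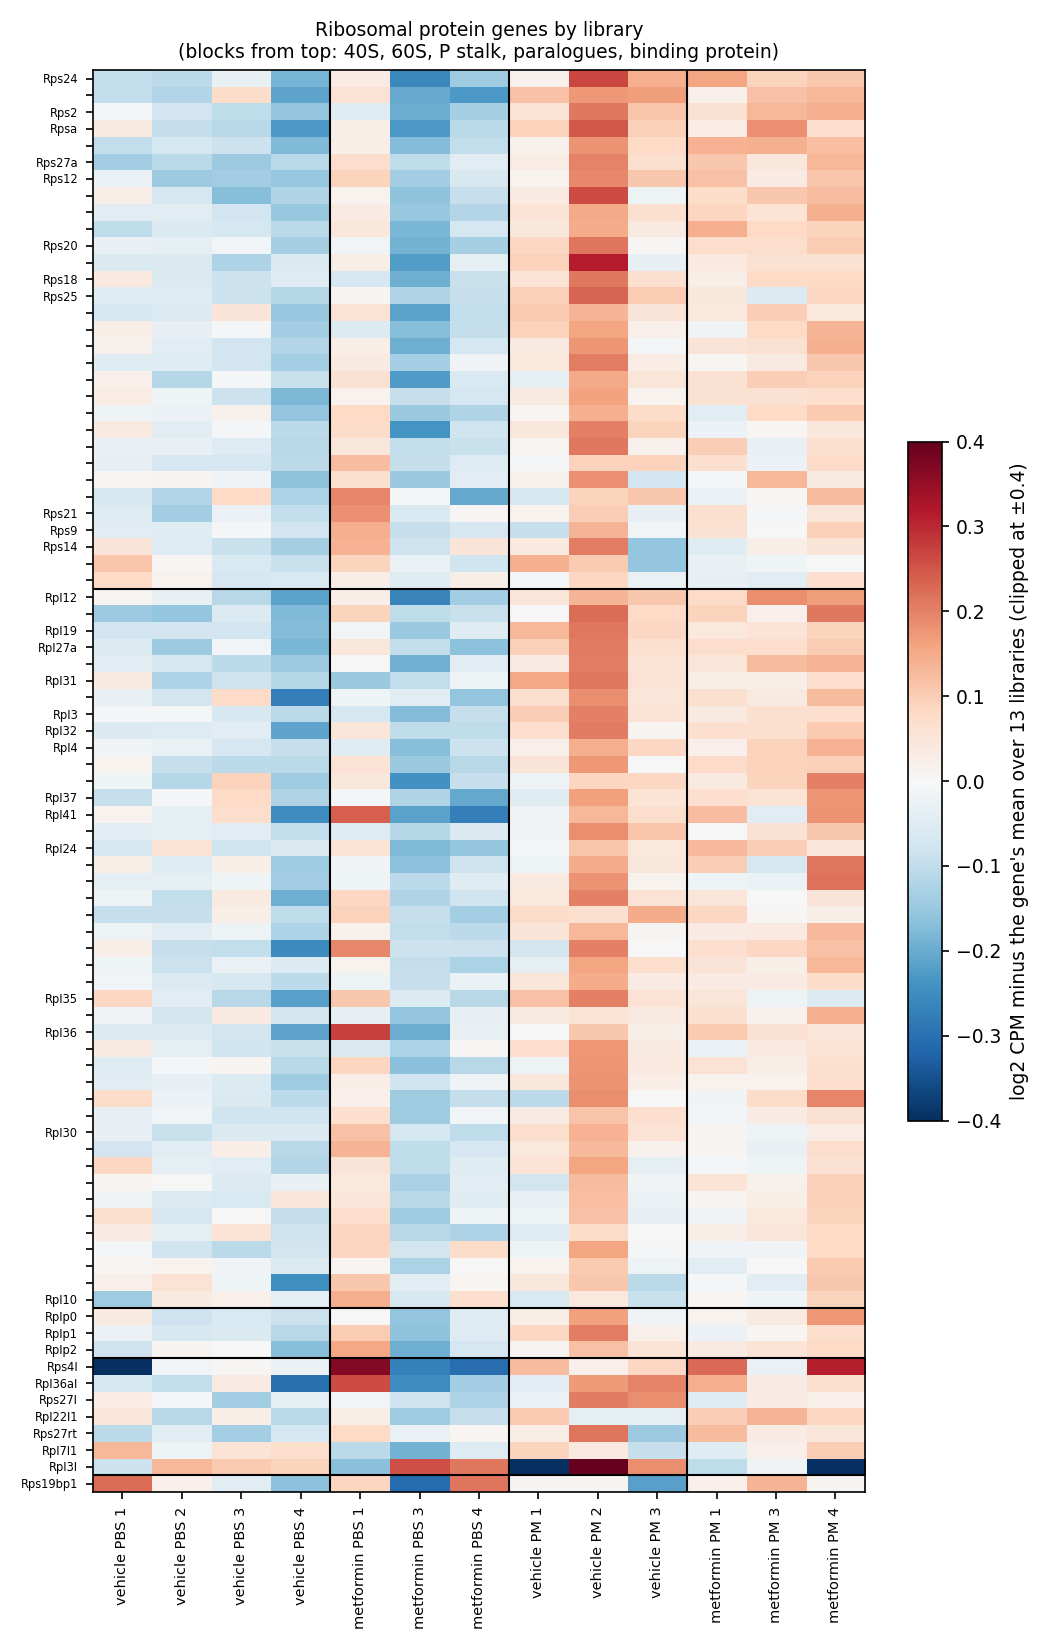
Each tested member (rows, in blocks by subunit) in each library (columns, by group) as log2 CPM minus the gene's mean over 13 libraries, clipped at 0.4 in either direction. Vehicle PM replicate 2 is the reddest column and metformin PBS replicate 3 the bluest, and the low-count rows Rps4l, Rpl3l and Rps19bp1 scatter most.

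Of 22 elongation factor and other TOP genes, 1 rose with PM on vehicle and 4 on metformin, against 2.6% and 7.18% of all genes, and the medians were 0.11 and 0.08. Hnrnpa1, an RNA-binding protein with a TOP message, was at 168 ± 9.86 CPM with vehicle and PBS, 135 ± 4.09 with metformin and PBS, 198 ± 2.96 with vehicle and PM and 178 ± 11.5 with metformin and PM. It rose with PM on vehicle (0.24 ± 0.06; edgeR adjusted p = 0.0169) and on metformin (0.40 ± 0.06; adjusted p = 0.000242) and was lower with metformin in PBS mice (-0.31 ± 0.06; adjusted p = 0.00664). Those calls were kept in 4 of 7, 6 of 6 and 6 of 7 fits that left out 1 library. Eef1g, a subunit of elongation factor 1, rose with PM on metformin by 0.28 ± 0.07 (edgeR adjusted p = 0.0101), and Npm1 and Nap1l1 rose there by 0.20 and 0.18, each kept in 1 of 6 fits. Eif4a2, a helicase of translation initiation, was higher with metformin in PBS mice by 0.46 ± 0.10 (edgeR adjusted p = 0.0151, kept in 6 of 7), and Nap1l1 was lower (-0.25 ± 0.05, kept in 3 of 7). In that comparison 6 of the 9 cycling-cell genes were also lower, and their part in these calls was not tested. Eif4a2 was also higher with metformin in PM mice (0.37 ± 0.11; edgeR adjusted p = 0.0391, kept in 1 of 6).

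Of 58 ribosome assembly genes, which act in rRNA synthesis and subunit maturation, 8 fell and none rose with metformin in PM mice by edgeR, and 7 fell by DESeq2. Over all genes 2.81% fell and 4.08% rose. Of the 58 fold changes 48 were negative, with a median of -0.16. In the same comparison markers of other cells were called higher: Col1a1, Col1a2 and Pecam1 among the 6 tested endothelial and stromal genes (median of the 6, 1.11) and Ager among the 7 tested epithelial genes. Of the 9 cycling-cell genes 8 fold changes were negative, with a median of -0.16, and 0 were called. The part of these markers in the assembly genes' change was not tested. Nol6, a processome factor, fell from 70.5 ± 0.47 to 56.7 ± 1.31 CPM (-0.31 ± 0.06; edgeR adjusted p = 0.00476). Dkc1, the pseudouridine synthase of box H/ACA particles, went from 38.9 ± 2.32 to 28.9 ± 2.47 CPM (-0.42 ± 0.09; edgeR adjusted p = 0.00596). Rrp12, an export factor, went from 28.2 ± 3.76 to 19.1 ± 2.65 CPM (-0.55 ± 0.12), and Ddx21, a nucleolar helicase, from 190 ± 9.87 to 157 ± 6.32 CPM (-0.27 ± 0.06; edgeR adjusted p = 0.00708 and 0.00784). Nol6 and Dkc1 passed in all 6 fits that left out 1 library, and Rrp12 and Ddx21 in 5. Ncl, Ftsj3, Gar1 and Tsr1 were the other 4 that fell, and they passed in 1 or 2 of 6. The count was 3 without vehicle PM replicate 2 or metformin PM replicate 1, 4 without metformin PM replicate 4 and 14 with no filter on low counts. With PM on metformin Pno1 rose and Noc2l and Nol6 fell by edgeR (0 higher and 1 lower by DESeq2), 1 and 2 of 58 where 7.18% of all genes rose and 5.6% fell. With PM on vehicle and with metformin in PBS mice edgeR and DESeq2 called 0 of 58. At an unadjusted p under 0.05 in edgeR 5 were higher and 2 lower with PM on vehicle, against 8.11% and 8.54% of all genes. With metformin in PBS mice 1 was higher and 7 lower at that threshold, against 8.34% and 9.51% of all genes. That these genes differ from the ribosomal proteins was not tested.

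Among 26 tested genes of mTOR, the TOP regulators and MYC, 1 rose and 3 fell with PM on vehicle, where 2.6% of all genes rose and 2.26% fell. Myc, a transcription factor that drives ribosome production, rose from 30.5 ± 7.24 to 53.5 ± 9.95 CPM (0.81 ± 0.15; edgeR adjusted p = 0.00204) and passed in all 7 fits that left out 1 library. Its antagonist Mxd4 fell by 0.29 (edgeR adjusted p = 0.0173), Sesn2, a leucine sensor upstream of mTOR, by 0.34 and Mlst8, a subunit of both mTOR complexes, by 0.41, and these 3 calls were kept in 5, 4 and 3 of 7 such fits. On metformin the kinase gene Rps6ka1 fell with PM by 0.27 (edgeR adjusted p = 0.00772) and none rose, against 5.6% and 7.18% of all genes. With metformin in PM mice, where 4.08% of all genes rose and 2.81% fell, 3 of the 26 rose and none fell: Mxd4 by 0.46 ± 0.07 (edgeR adjusted p = 0.000645), Mxd1, another MYC antagonist, by 0.74 ± 0.14 (adjusted p = 0.00299) and Pdcd4, an inhibitor of eIF4A, by 0.44 ± 0.12 (adjusted p = 0.0284, kept in 2 of 6). With metformin in PBS mice 0 of the 26 passed in edgeR or DESeq2. At an unadjusted p under 0.05 in edgeR 5 were higher and 1 lower, against 8.34% and 9.51% of all genes.

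Loss of single ribosomal proteins is known to activate p53. Of 8 genes of that response, Phlda3 was lower in all 4 simple comparisons, from -0.47 ± 0.11 with metformin in PBS mice to -0.70 ± 0.12 with PM on metformin (edgeR adjusted p = 0.017 and 0.00069), and Mdm2, the p53 ligase that RPL5 and RPL11 bind, rose with PM on metformin (0.28 ± 0.08; edgeR adjusted p = 0.0186). Cdkn1a, the cell-cycle inhibitor, did not pass in any comparison. Unlike Phlda3, most of the 8 had positive fold changes: 6 with PM on vehicle, 7 with PM on metformin, and 5 with metformin in PBS and in PM mice. The medians were 0.067, 0.062, 0.097 and 0.115 in that order. Over all genes 2.26%, 5.6%, 1.93% and 2.81% fell in the same order, and 7.18% rose with PM on metformin. Of the 76 tested mitochondrial ribosomal protein genes 1 rose with PM on vehicle and 2 on metformin, against 2.6% and 7.18% of all genes, with medians of 0.04 and 0.06. With metformin edgeR and DESeq2 called 0 in PBS or PM mice. At an unadjusted p under 0.05 in edgeR 1 was higher and 5 lower in PBS mice, against 8.34% and 9.51% of all genes. In PM mice 2 were higher and 3 lower at that threshold, against 10.8% and 9.54% of all genes.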

How the data were processed

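RNA of sorted alveolar macrophages was sequenced as 75-base single reads. Per the submitters' processing notes, the authors used bcl2fastq 2.19, TopHat2, HTSeq and edgeR with build mm10. The deposited table gives, per the file headers, a raw read count per gene and library, and gene coordinates and Length (unit "other"), used here for positions and overlaps. Annotation release, strand setting and handling of multiply matching reads are not given in the sources used here. A symbol was found for 42462 of 43430 identifiers.

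Genes passing filterByExpr (11906, among them 85 of the 92 members) were tested with edgeR 4.0.16 in R 4.3.3, with trimmed mean of M values scaling and 1 coefficient per group over all 13 libraries. A gene was called at a Benjamini-Hochberg adjusted p under 0.05 within a comparison. Named members are up to 6 calls per direction and comparison, the stalk genes, the paralogues, the highest and lowest levels and the extreme fold changes. Of each related list, up to 4 genes with the lowest adjusted p are named, and others were picked after their values were seen. Unique windows, 75 bases long, were counted on GENCODE M21 principal transcripts. Motifs came from RefSeq. Alternatives were DESeq2 1.42.0, limma-voom (limma 3.58.1), other scalings and filters (none, or 5 CPM in 3 libraries), a fit of only the groups compared, a replicate block and leaving out each library. The code was tested on simulated data. Intervals cover counting error only, or use the fit's error. Members and lists were chosen with earlier results of these data known. Some genes of the family are not reported here by name; they remain in the counts and medians.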

Additional observations from a re-analysis of the deposited data

Results flagged for a closer look

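In the vehicle PBS group, with 4 libraries, 1 library stood apart from the other 3 in 6 of 46 quantities examined, by the share of the whole range that separates it from its nearest neighbour. Chance flags about 1 in 20 groups. The share was 0.963 for Rpl19 (174 CPM in replicate 4 against 186 in each of the others), 0.914 for Rpl32 (320 against 356 to 359 CPM) and 0.869 for Rpl36 (63.4 against 69.7 to 70.7 CPM), all low in replicate 4. It was 0.842 for the mitochondrially encoded share, also lowest in replicate 4. Rps12 was high in replicate 1 (0.915; 239 against 219 to 221 CPM), and Rps4l was low there (0.946; 19.9 against 27.7 to 28.2 CPM).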

How the results depend on the processing

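No called member reversed direction. The 18 calls were each recomputed under the alternatives, which gave 280 values in all. Of these values 176 stayed past the threshold and 104 did not, 75 of the latter when 1 library was left out. With PM on vehicle the 10 members that rose became 6 with upper quartile scaling, 20 with no filter and 3 with the replicate block, and 0 to 9 when 1 library was left out. With PM on metformin the 8 became 5 with RLE scaling and 4 when only the groups compared were fitted, and 0 to 23 when 1 library was left out. DESeq2 gave 13 and 6, limma-voom 11 and 10, and the replicate block 7 in the second. The cause was not tested. The median fold change stayed positive in every alternative run, from 0.088 to 0.16 on vehicle and from 0.065 to 0.158 on metformin. No member passed with metformin or for the difference of the PM effects under any alternative run. Same-numbered libraries of different groups did not deviate together (r from -0.102 to 0.116 over 16 pairs, -0.143 to 0.141 over the 47 others). No pairing by number was seen, but correlations of deviations from means of so few libraries cannot exclude one. Uncalled members with small changes switched sign in 26 recomputed values. Precision limits single genes: the smallest called change was 12.3%, and 95% intervals had a median half-width of 0.125 and 0.132 (log2) in the PM comparisons.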
